A study of Mus musculus with 11 samples.

Results

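Mammary glands from pregnant Balb/C mice were compared with glands from pregnant FVB129B6 mice across every mouse miRNA on a custom miRNA array. The comparison took the 3 arrays labelled Balbc, written Balb/C here, and the 3 arrays labelled FVB129B6, 6 of the 11 arrays of the series, and was chosen by strain alone. All were normal female glands without a transgene, taken at the same late day of pregnancy, and the parental backgrounds had been profiled because tumor models of the study had been bred on them. The titles of Balb/C replicates 2 and 3 share a prefix (M2_2L and M2_2R), and nothing in the labels says whether these were separate mice. The p-values below therefore measure the spread between arrays, which may be partly technical.

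A miRNA is a short RNA that guides silencing proteins to messenger RNAs, and bases 2 to 8 from its 5′ end, the seed, do most of the pairing. Many miRNAs belong to families that share a seed, and many are nearly restricted to 1 tissue. The miR-200 family marks epithelium, miR-1 and miR-133 mark skeletal and cardiac muscle, miR-451 and miR-144 mark red blood cells, and miR-150 marks mature lymphocytes, so the levels in a whole gland reflect its mixture of cells. In such bulk tissue, fewer cells of a type and less of the miRNA per cell cannot be told apart.

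The mature sequences below are those of the miRNAs that the comparison turns on, credited to RefSeq on GRCm38.p6, 5′ to 3′, with the seed in capitals. The miR-200 family is shown whole because all its members differed the same way. It holds 2 seeds that differ at 1 base.
miR-200a: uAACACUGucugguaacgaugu
miR-141: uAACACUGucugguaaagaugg
miR-200b: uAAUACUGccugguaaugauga
miR-200c: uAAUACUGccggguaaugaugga
miR-429: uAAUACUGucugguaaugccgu
These lie in 2 clusters, with miR-200a, miR-200b and miR-429 on chromosome 4 inside the span of the gene Gm13648, and miR-141 and miR-200c on chromosome 6 in no other annotated gene. Of the let-7 family, whose levels were shared by the strains, 3 members are shown.
let-7a: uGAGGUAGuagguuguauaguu
let-7c: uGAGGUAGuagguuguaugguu
let-7f: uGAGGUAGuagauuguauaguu
Both let-7c and let-7f differ from let-7a at 1 base, so their probes may share signal. From the red blood cell and muscle lists come miR-451, miR-144 and miR-206.
miR-451: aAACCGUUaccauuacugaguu
miR-144: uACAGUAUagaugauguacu
miR-206: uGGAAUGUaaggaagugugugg
The first 2 of these are neighbours on chromosome 11 (chr11:78073186-78073207 and chr11:78073047-78073066), and miR-206 lies in the span of Lincmd1 at chr1:20679055-20679076. The last set holds the 2 miRNAs that passed the test, miR-760 and miR-698, and miR-346, a dim miRNA with a large difference.
miR-760: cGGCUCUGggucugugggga
miR-698: cAUUCUCGuuuccuucccu
miR-346: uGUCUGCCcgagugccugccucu
miR-760 lies at chr3:122293615-122293634 in the span of Gm40190, miR-698 at chr4:124743852-124743870 in the spans of Inpp5b and Gm12915, and miR-346 at chr14:34894624-34894646 in the span of Grid1, a glutamate receptor gene.

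Levels are log2 of the green signal, with the array's median over its mouse miRNA spots set to 0 and the 4 spots of a miRNA averaged, so a difference of 1 is a change of 2-fold. The 6 arrays were alike in brightness, with a median spot intensity of 520.5 to 671.5 in FVB129B6 and 508 to 583 in Balb/C. Well above background were 254 to 262 of the 334 miRNAs in FVB129B6 and 246 to 250 in Balb/C, and no spot was saturated. All 6 arrays sat on the same slide and were scanned together. The FVB129B6 arrays lay in columns 1 and 2 of the slide and the Balb/C arrays in columns 2 and 3, so only column 2, with FVB129B6 replicate 3 and Balb/C replicate 1, held both strains. Outside that column, strain and place on the slide cannot be told apart.

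The strains shared most of their miRNA profile. All 6 arrays had 231 of the 334 miRNAs well above background, no array had 55 of them so, and 255 were tested. Across these 255 miRNAs the Pearson correlation of the strain means was 0.979, a description over probes that share arrays. The 10 miRNAs with the brightest probes had 7 in common between the strains, and the 50 with the brightest probes had 47 in common. In both lists of 10 stood miR-143 and miR-145, which mark smooth muscle and stroma, let-7a and let-7c, miR-19b of the miR-17-92 cluster, miR-133b, and the probe named miR-720.

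**Figure D1:**
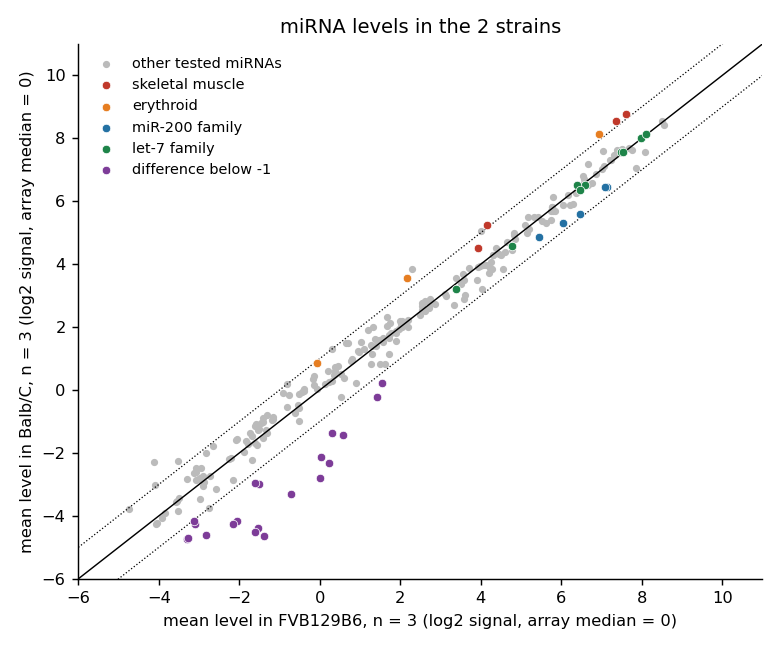
Mean level of the 255 tested miRNAs in FVB129B6 (x axis) against Balb/C (y axis), both as log2 signal over the array median, with the line of equality and dotted lines at a difference of 1. The let-7 family lies on the line, muscle and erythroid miRNAs lie above it, the miR-200 family lies below it, and the 20 miRNAs with a difference below -1 have mean levels between -4.02 and 0.88.

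For 169 of the 255 tested miRNAs (66.3%), the 95% interval of the difference lay within 1 log2 unit of 0. The median difference, Balb/C minus FVB129B6, was 0.03, and the median size of a difference was 0.21. The mean was higher in Balb/C for 139 of the tested miRNAs and lower for 116. Precision depended on the level. Among the 78 miRNAs with a mean level above 4, 63 had an interval within 1 log2 unit of 0, against 15 of the 45 miRNAs with a mean level below -2. The median SD between arrays was 0.25 in Balb/C and 0.19 in FVB129B6, and it was larger in Balb/C for 158 of the 255 miRNAs.

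Only 2 of the 255 tested miRNAs (0.784%) passed an adjusted p of 0.05 in limma, and both fell in Balb/C. An unadjusted p under 0.05 was reached by 65 miRNAs, these 2 included, and 15 had an adjusted p between 0.05 and 0.06. The 3 arrays of each strain did not overlap for 36 miRNAs that were higher in Balb/C (14.1%) and for 45 that were lower (17.6%). Those shares are the background for every count of non-overlapping miRNAs given below.

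The let-7 family, which restrains growth genes and rises as cells differentiate, was the clearest shared group. All 9 members had an interval within 1 log2 unit of 0, and their differences ran from -0.19 for let-7e to 0.14 for let-7g. Let-7a was at 7.91, 7.94 and 8.10 in FVB129B6 and at 7.89, 8.01 and 8.13 in Balb/C. Let-7c was at 8.03, 8.06 and 8.27 and at 8.08, 8.05 and 8.29. No member separated the strains, and in each of these 2 the third replicate was the highest in both strains. The family's median difference of 0.02 took the other sign under 3 of the 4 other scalings, with medians from -0.15 to 0.09.

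Stromal and smooth muscle miRNAs were shared as closely. miR-143 was at 8.51, 8.36 and 8.61 in FVB129B6 and at 8.54, 8.32 and 8.75 in Balb/C, a difference of 0.04 with a 95% interval from -0.35 to 0.43. miR-145, made from the same transcript, differed by 0.03 (-0.36 to 0.42), and miR-199a by 0.05 (-0.37 to 0.47). All 5 tested members of this list had an interval within 1 log2 unit of 0. miR-214, which is transcribed with a copy of miR-199, was slightly lower on every Balb/C array, with a difference of -0.19 (-0.50 to 0.13).

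Other broadly expressed families fell in the same narrow range. The 5 tested miR-30 miRNAs differed by -0.16 to 0.18, the 5 miRNAs of the miR-23, miR-27 and miR-24 clusters by -0.18 to 0.11, the 3 miR-29 miRNAs by -0.05 to 0.18 and the pair of miR-26 miRNAs by -0.15 to 0.17. The intervals of all 15 of these lay within 1 log2 unit of 0. The same held for the 6 miRNAs with the seed of miR-17, a proliferation-linked group, although 5 of the 6 had a lower mean in Balb/C and their median was -0.18. miR-21, which is often raised in tumors, differed by -0.13 (-0.52 to 0.25).

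Among the miRNAs named in the study, miR-10b was at 4.80, 4.60 and 4.96 in FVB129B6 and at 4.46, 4.41 and 4.46 in Balb/C. Its strains did not overlap, and the difference of -0.34 (-0.69 to 0.00) did not pass (limma adjusted p = 0.198). Its relative miR-10a differed by -0.01 (-0.37 to 0.35). miR-148a, abundant in lactating epithelium, was at 8.09, 7.91 and 8.23 and at 7.79, 6.90 and 8.01. Its difference of -0.51 had an adjusted p of 0.352, and it was -0.18 without Balb/C replicate 2. miR-494 differed by 0.01 (-0.31 to 0.34). miR-135b and miR-412 were well above background on none of the 6 arrays, and miR-505 on 2 Balb/C arrays only.

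**Figure D2:**
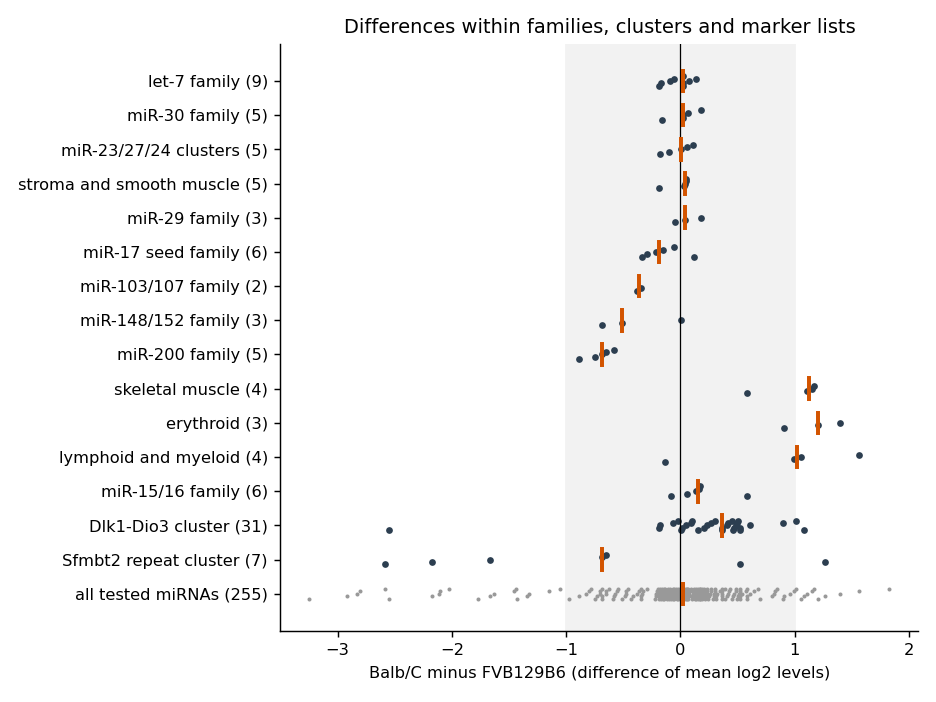
Difference of mean log2 levels, Balb/C minus FVB129B6, for each tested member (points) of 15 families, clusters and marker lists and for all 255 tested miRNAs (grey), with the median as an orange bar and the number tested in parentheses; the shaded band spans -1 to 1. The let-7, miR-30 and stromal points cluster at 0, the miR-200 family has its median at -0.69, and the skeletal muscle and erythroid lists have theirs at 1.13 and 1.20.

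Of the epithelial miRNAs, the miR-200 family had lower means in Balb/C. All 5 members of the miR-200 family, which holds cells in the epithelial state by silencing Zeb1 and Zeb2, had a lower mean there, by 0.58 to 0.89 log2 units, and none passed the test. Their median was -0.69, between -0.86 and -0.62 under the other scalings, against 0.03 over all tested miRNAs. The strains did not overlap for 3 of the 5.

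miR-141 was at 6.62, 6.20 and 6.62 in FVB129B6 and at 5.71, 5.04 and 6.02 in Balb/C. The highest Balb/C array lay just under the lowest FVB129B6 array, and the difference was -0.89 (-1.55 to -0.23, limma adjusted p = 0.0969). miR-200c, encoded beside it, was at 6.09, 5.87 and 6.18 and at 5.38, 4.82 and 5.69, a difference of -0.75 (-1.32 to -0.17, adjusted p = 0.101). miR-200a was at 7.23, 6.93 and 7.28 and at 6.53, 5.96 and 6.90, with a difference of -0.69 (adjusted p = 0.159). For miR-200b (-0.65) and miR-429 (-0.58) the strains overlapped. In all 5 miRNAs Balb/C replicate 2 was the lowest array and Balb/C replicate 3 the highest of its strain.

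The 3 miRNAs with the seed AAUACUG had a median difference of -0.65, close to that of the whole family. Lower values were also seen between the 2 arrays of the shared slide column, where the family's median was -0.77, against -0.65 between the other 4 arrays. Without Balb/C replicate 2 the family's median was -0.43. The red channel of the same spots was not lower, with a median red difference of 0.16 for the family and 0.15 for all tested miRNAs.

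Other epithelial markers did not all share this direction. miR-203, a differentiation miRNA of stratified epithelium, was at 3.63, 4.14 and 4.31 in FVB129B6 and at 3.32, 3.03 and 3.27 in Balb/C. Its strains did not overlap, and the difference of -0.82 had an adjusted p of 0.0764. The co-transcribed miR-96 and miR-182 differed by -0.43 (-0.96 to 0.09) and -0.36 (-0.79 to 0.06), whereas miR-183 of the same cluster differed by 0.23 (-0.38 to 0.84). miR-205, found mainly in basal and stem-like epithelial cells, was at 5.43, 5.87 and 6.06 and at 6.17, 5.73 and 6.50, a difference of 0.35 (-0.27 to 0.96). Of the 10 epithelial markers, 8 had a lower mean in Balb/C, against 116 of all 255 tested miRNAs. Without overlap 4 of the 10 were lower, against 17.6% of all tested miRNAs.

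All 4 tested skeletal muscle miRNAs had a higher mean in Balb/C, 3 without overlap, with a median difference of 1.13 (0.93 to 1.19 under the other scalings), and none passed the test. miR-1, which drives muscle differentiation, was at 7.25, 7.44 and 7.41 in FVB129B6 and at 8.89, 8.67 and 8.06 in Balb/C. The FVB129B6 arrays were tightly grouped, and each Balb/C array lay above them. The difference was 1.17 (0.61 to 1.72), a ratio of 2.24, with a limma adjusted p of 0.0551. miR-133b was at 7.50, 7.65 and 7.68 and at 8.95, 9.12 and 8.21, a difference of 1.15 (0.54 to 1.75, adjusted p = 0.0551).

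miR-133a*, the other strand of the miR-133a hairpin, was at 4.13, 4.12 and 4.22 in FVB129B6 and at 5.57, 5.49 and 4.73 in Balb/C, a ratio of 2.15 with the same adjusted p. miR-206, the form restricted to skeletal muscle, was at 3.88, 3.70 and 4.21 and at 4.99, 4.61 and 3.94. Its strains overlapped through Balb/C replicate 3, and its difference of 0.58 had an interval from -0.11 to 1.28. The heart-enriched miR-208 was well above background on no array, and miR-499 was so on 2 Balb/C arrays and no FVB129B6 array. In the shared slide column miR-1 differed by 1.47 and miR-133b by 1.27, against 1.01 and 1.09 between the other 4 arrays. The red channel of the miR-1 spots differed by -0.04. Taken as green over red, miR-1 and miR-133b passed the limma test (adjusted p = 0.0355 and 0.0446), and miR-133a* and miR-206 did not (adjusted p = 0.0525 and 0.118). That alternative passed 10 miRNAs, 5 higher and 5 lower in Balb/C, with miR-34a, miR-452 and miR-760 among the lower.

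All 3 red blood cell miRNAs had a higher mean in Balb/C as well, 2 without overlap, and none passed the test. miR-451, which is processed by Argonaute 2 in erythroid cells, was at 6.76, 6.76 and 7.33 in FVB129B6 and at 8.19, 8.66 and 7.60 in Balb/C. Its strains did not overlap, and the difference was 1.20 (0.48 to 1.93), a ratio of 2.30, with a limma adjusted p of 0.0764. miR-486, abundant in red cells and muscle, was at 1.99, 2.13 and 2.41 and at 3.70, 3.91 and 3.11. That difference of 1.39 (0.82 to 1.97), a ratio of 2.63, had an adjusted p of 0.0514, and as green over red miR-486 passed (adjusted p = 0.0355) while miR-451 and miR-144 did not (adjusted p = 0.0525 and 0.133). miR-144, the neighbour of miR-451, was at -0.08, -0.63 and 0.54 and at 1.00, 1.29 and 0.26, a difference of 0.91 (0.01 to 1.80) with overlap.

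The median of the 3 erythroid miRNAs was 1.20 (1.03 to 1.27 under the other scalings), 0.87 in the shared slide column and 1.37 between the other arrays. Among the Balb/C arrays, replicate 3 was the lowest for all 7 muscle and erythroid miRNAs. The mean level of the muscle list was 7.10, 6.97 and 6.23 on Balb/C replicates 1, 2 and 3 and 5.69 to 5.88 in FVB129B6. For the erythroid list it was 4.30, 4.62 and 3.66, against 2.75 to 3.43. The part of muscle or blood in these glands was not tested apart from the miRNAs themselves.

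Of the lymphocyte and myeloid miRNAs, miR-150, miR-142-5p and miR-155 set Balb/C replicate 2 apart from the other 5 arrays. miR-150, which is high in resting B and T cells, was at 2.22, 2.39 and 2.28 in FVB129B6, at 2.48 and 2.21 in Balb/C replicates 1 and 3, and at 6.90 in Balb/C replicate 2. miR-142-5p, made in all blood lineages, was at 3.98, 3.77 and 4.29, at 3.78 and 3.85, and at 7.57 in that array. miR-155, raised in activated lymphocytes, was at 0.42, -0.04 and 0.53, at 0.67 and 0.63, and at 2.58. miR-223, of granulocytes and macrophages, did not follow, at 4.34, 4.35 and 4.67 in FVB129B6 and 4.16, 4.47 and 4.34 in Balb/C.

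With all arrays, the differences of miR-150, miR-142-5p and miR-155 were 1.56, 1.06 and 0.99, and without Balb/C replicate 2 they were 0.04, -0.19 and 0.35. Their intervals included 0 (-1.28 to 4.40, -1.30 to 3.41 and -0.28 to 2.26). miR-146, an NF-kB target that dampens immune signalling, was also highest on Balb/C replicate 2, at 4.43 against 3.05 to 3.54 on the other 5 arrays. Replicate 2 was at the same time the lowest array for miR-148a and for the miR-200 family.

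**Figure D3:**
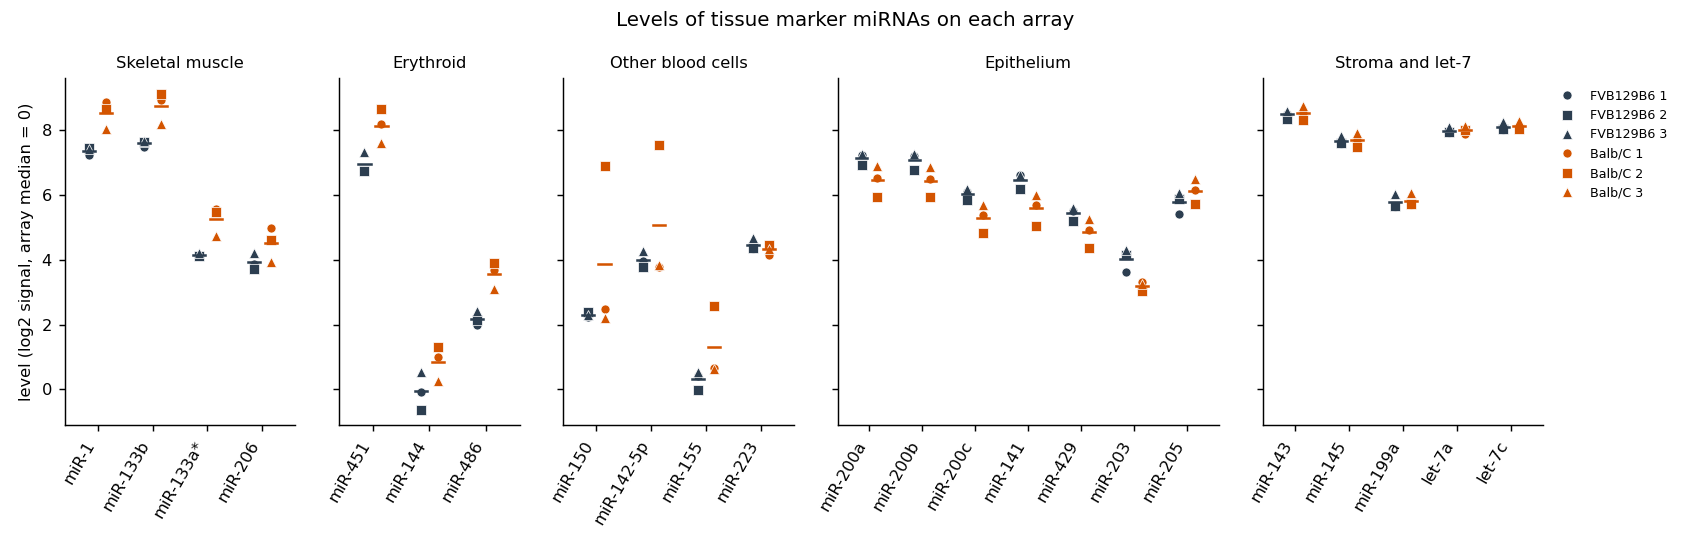
Level on each array (log2 signal, array median at 0) of marker miRNAs for 5 kinds of tissue, with FVB129B6 in dark blue, Balb/C in orange, a symbol for each replicate and a bar at the mean of 3 arrays. Muscle and erythroid miRNAs have higher means in Balb/C, miR-150, miR-142-5p and miR-155 are high on Balb/C replicate 2 alone, the miR-200 family has lower means in Balb/C, and the stromal and let-7 miRNAs coincide.

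Both miRNAs that passed the test were dim and fell in Balb/C. miR-760 was at -2.35, -2.91 and -3.24 in FVB129B6 and at -4.51, -4.53 and -4.77 in Balb/C, where no array had it well above background. It was at least 2.85-fold lower in Balb/C, taking each Balb/C array at the lowest level that was well above background on it (limma adjusted p = 0.0498). miR-760 was admitted to the test only through its FVB129B6 arrays, so its p-value is no independent support for the direction. miR-698 was at -0.96, -1.24 and -2.62 and at -4.13, -4.69 and -4.75, with 1 of the 3 Balb/C arrays well above background. Its difference was -2.92 (-3.98 to -1.86, adjusted p = 0.0498). miR-698 also needed its FVB129B6 arrays to reach the test, so its p-value is no independent support for the direction either. For both miRNAs the arrays of the shared slide column were the nearest pair of different strains. The red channel of the miR-698 spots differed by -2.29 and that of the miR-760 spots by -0.51. As green over red, miR-760 passed and miR-698 did not (difference -0.47, adjusted p = 0.106). Neither passed without FVB129B6 replicate 2 (adjusted p = 0.174 for both) or without Balb/C replicate 2 (adjusted p = 0.105 for both), and miR-698 did not pass without FVB129B6 replicate 1 (adjusted p = 0.0928).

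Among miRNAs well above background on all 6 arrays whose strains did not overlap, the largest differences were also lower values in Balb/C. Non-overlap was a condition of this choice and is no result here. They belonged to miR-346 (-2.80), miR-667 (-2.55), miR-669b (-2.17), miR-468 (-2.03) and miR-297 (-1.67), none of which passed (adjusted p = 0.0551 to 0.0874). miR-346 was at 0.50, 0.27 and -0.72 in FVB129B6 and at -1.59, -3.03 and -3.73 in Balb/C. miR-468 was at 0.79, 0.71 and 0.24 and at -0.04, -2.36 and -1.93. For miR-346 and miR-468, the 2 arrays of the shared slide column were the nearest pair of different strains. Between these 2 arrays miR-346 differed by -0.87 and miR-468 by -0.29, against -3.77 and -2.90 between the other 4.

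Most of the other miRNAs that were much lower in Balb/C showed the same gradation. Of the 255 tested miRNAs, 20 had a difference below -1, with mean levels from -4.02 to 0.88, and they were picked here for that difference, so their values are a description. Only 9 of the 20 were well above background on all 6 arrays, and low signal limits the size of the other differences. The median difference of the 20 was -1.90, and it was -0.66 in the shared slide column against -2.46 between the other 4 arrays. For 18 of the 20 the difference was smaller in the shared column. The red channel of the same spots was lower in Balb/C for 20 of 20, with a median red difference of -1.05, and for 11 of them the red values of the strains did not overlap. Over all tested miRNAs, 17 (6.67%) had red values that were lower in Balb/C without overlap. The green and red differences had a Pearson correlation of 0.710 across the 255 tested miRNAs, which include these 20 and are not independent. What RNA the red channel carried is not given in the sources used here, and its part in these differences was not tested.

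Among the 20, miR-452 did not follow the slide column. It was chosen here after its values were seen. miR-452 was at -3.75, 0.09 and -0.53 in FVB129B6 and at -4.32, -4.94 and -4.67 in Balb/C, with replicate 1 of FVB129B6 close to the Balb/C arrays. Only 1 of the 3 Balb/C arrays had it well above background, so miR-452 too needed its FVB129B6 arrays to reach the test. Its difference was -3.25 (-5.50 to -0.99, limma adjusted p = 0.0876), and -3.79 in the shared column.

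**Figure D4:**
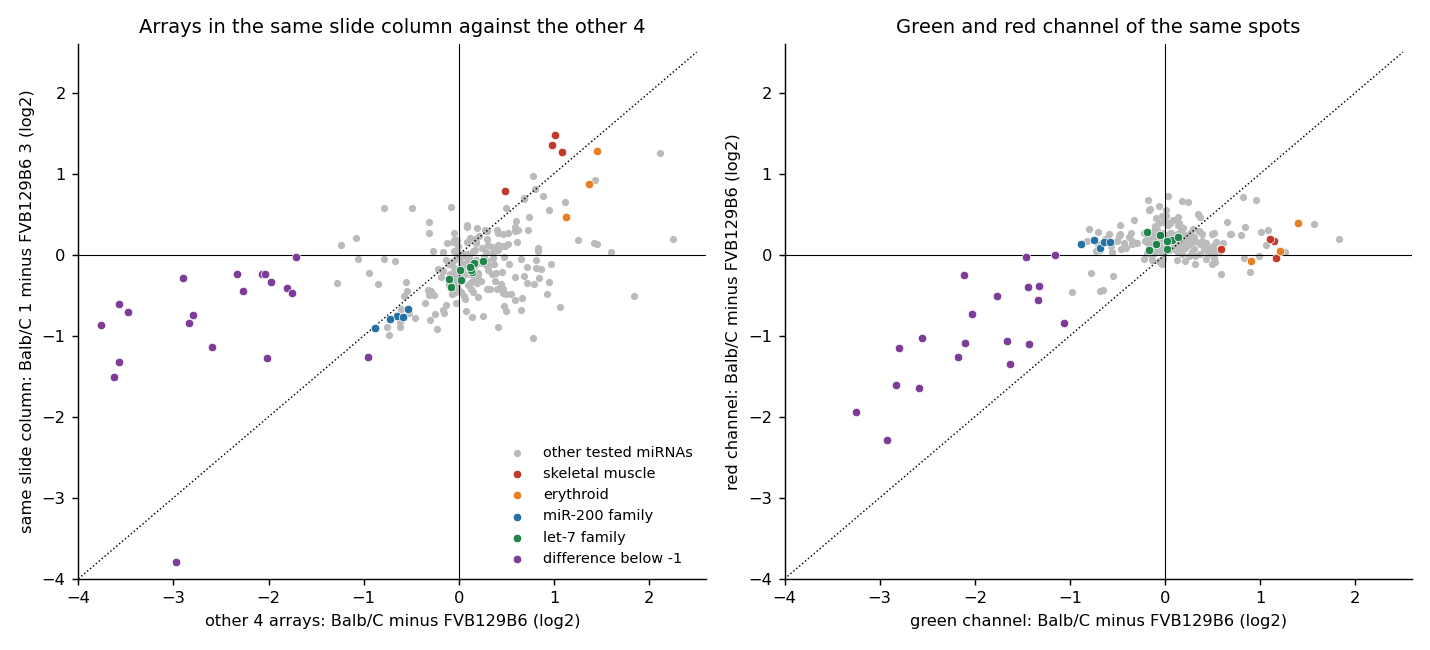
Left, difference between the 2 arrays that share a slide column (Balb/C replicate 1 minus FVB129B6 replicate 3, y axis) against the difference between the other 4 arrays (x axis), both in log2 units, for 255 miRNAs. Right, red channel difference against green channel difference of the same spots, where the 20 miRNAs below -1 in green lie at or below 0 in red, and muscle, erythroid and miR-200 miRNAs lie near the median red difference of 0.15.

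On the higher side, 11 tested miRNAs had a difference above 1, and 9 of the 11 were well above background on all 6 arrays. Besides the muscle, erythroid and lymphoid miRNAs, these were miR-489, miR-467*, miR-543 and miR-299. miR-489, encoded inside the calcitonin receptor gene Calcr, was at -4.11, -4.66 and -3.57 in FVB129B6 and at -2.31, -1.73 and -2.81 in Balb/C, and it is named here after its values were seen. Its strains did not overlap, and its difference of 1.83 (0.95 to 2.70) had a limma adjusted p of 0.0551, and 0.0355 as green over red. On the same FVB129B6 arrays the negative control spots averaged -4.76, -4.92 and -4.87, so low signal limits the size of the miR-489 difference. miR-467* was at -3.56, -3.21 and -3.81 and at -2.89, -0.87 and -3.03, so that its difference of 1.26 was 0.57 without Balb/C replicate 2.

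Over all tested miRNAs, the difference in the shared column and the difference between the other 4 arrays had a Pearson correlation of 0.533, across 255 miRNAs that are not independent. The pair of arrays in the shared column differed less than any pair of Balb/C arrays and more than any pair of FVB129B6 arrays. The mean size of the difference between those 2 arrays was 0.388 log2 units, against 0.245 to 0.352 between FVB129B6 arrays, 0.392 to 0.490 between Balb/C arrays and 0.397 to 0.696 for the other 8 pairs of different strains.

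In the Dlk1-Dio3 cluster, an imprinted region expressed from the maternal chromosome, 26 of the 31 tested miRNAs had a higher mean in Balb/C. Over all 255 tested miRNAs 139 did. The cluster's median difference was 0.36, against 0.03 over all tested miRNAs, and 0.19 to 0.43 under the other scalings. 4 were higher without overlap, near the background of 14.1%, and 18 had an interval within 1 log2 unit of 0. In the shared slide column the median was -0.27, and between the other arrays it was 0.65. Without Balb/C replicate 3 it was 0.13. miR-667, at -2.55, stood far from the rest of the cluster, whose next lowest value was -0.19.

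In the Sfmbt2 repeat cluster, a rodent array of near-identical hairpins inside an intron of Sfmbt2, 5 of 7 tested miRNAs had a lower mean in Balb/C, from -0.65 to -2.59, while miR-466 (0.52) and miR-467* (1.26) had a higher mean. The cluster's median red difference was -0.45. Because such repeats resemble each other, signal can be shared among their probes.

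Within several families the members had unlike differences. miR-152 was at 4.59, 4.36 and 4.69 in FVB129B6 and at 3.86, 3.69 and 4.02 in Balb/C, a difference of -0.69 (-1.07 to -0.31, limma adjusted p = 0.0598), whereas miR-148b, with the same seed, differed by 0.01 (-0.37 to 0.38). miR-146b, at -0.80 (-1.40 to -0.20), and miR-146, at 0.17 (-0.71 to 1.05), share a seed, and without Balb/C replicate 2 they were at -0.56 and -0.27. miR-181b was at 3.66, 3.37 and 3.74 and at 2.85, 2.62 and 3.17, a difference of -0.71, against -0.16 for miR-181a and 0.01 for miR-181c. miR-34a, a p53 target, was at 3.62, 3.49 and 3.70 and at 2.98, 3.02 and 3.05, a difference of -0.59 (-0.89 to -0.28, adjusted p = 0.0551), against 0.11 and 0.01 for miR-34b and miR-34c. The differences between members of a family were not themselves tested.

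In other families the members had like differences. miR-103 and miR-107, made from introns of pantothenate kinase genes and 1 edit apart in sequence, differed by -0.38 (-0.69 to -0.07) and -0.35 (-0.65 to -0.05), with no overlap for either and no call. miR-128a and miR-128b, whose mature sequences are identical, differed by 0.69 and 0.68, which gives a measure of how closely separate probes of the same miRNA repeat. miR-132 and miR-212, which are made from the same transcript, differed by 0.39 and 0.29, both without overlap. miR-22 was higher on every Balb/C array, with a difference of 0.52 (0.06 to 0.98, adjusted p = 0.157).

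No marker of the further tissues passed the test. The 7 tested neuronal miRNAs had a median difference of 0.05, with 2 higher and 1 lower without overlap, and that median took the other sign under 2 scalings and without Balb/C replicate 1 (-0.05). The 3 tested liver and gut miRNAs all had a lower mean in Balb/C, with a median of -0.17, which ran from -0.59 without Balb/C replicate 2 to -0.04 without Balb/C replicate 3 when single arrays were left out. Of the miRNAs from embryonic stem cell clusters, 2 of 11 were tested, both with a lower mean in Balb/C (-0.33 and -1.43), and the others did not pass the filter on dim miRNAs. Neither of the tested pair was well above background on all 6 arrays, so low signal limits both differences. Their median was 0.12 in the shared slide column and -1.38 between the other arrays.

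The study's own groupings of miRNAs in tumors were read here for their names only. Of its luminal list, 73 miRNAs were tested, with a median difference of -0.01, 7 higher and 11 lower without overlap. Of its basal list, 50 were tested, with a median of 0.29, 13 higher and 4 lower without overlap. The basal median was -0.13 in the shared slide column and 0.53 between the other arrays, and 0.19 without Balb/C replicate 2. No member of either list passed the test. The luminal median took the other sign under scaling to the 75th percentile. Both lists were chosen in that study for another contrast.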

How the data were processed

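The authors hybridised fluorescently labelled RNA to a custom miRNA array and deposited Agilent Feature Extraction 10.5.1.1 spot values, that is green and red spot intensities with local background removed and dyes balanced by that software. The deposited table of log2 values equals the log2 green intensity after 1 constant per array. A MAS5 call filter in the methods was not repeated here. Spots of the 334 mouse miRNAs were log2 transformed, each array's median was subtracted, outlier spots were left out and the 4 spots of a miRNA averaged. A miRNA was tested when 50% or more of its spots exceeded background clearly (the scanner software's flag) on 3 or more of the 6 arrays. Strains were compared with limma 3.58.1 in R 4.3.3 with Benjamini-Hochberg adjustment at 0.05, and the precision is limited by 3 arrays a strain. The fit was tested on simulated data with independent noise of equal spread in both strains. These had no effect of slide place and no background floor, so the simulation does not bear on those limits. Where no array of the dimmer strain was well above background, a fold is a lower bound.

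Named miRNAs were those called, the 5 largest non-overlapping differences in each direction among miRNAs detected by that rule on all 6 arrays, the 10 with the highest mean level, leading members of each list, and those the paper names. The members and lists were chosen with earlier results of these data known. Mature sequences were matched through the deposited probe sequences, allowing up to 3 bases of difference at the 3′ end, and 265 of 334 miRNAs matched RefSeq. Alternatives were other scalings, filters, a floor, background correction, green over red, the deposited table and all 8 gland arrays. Arrays left out or averaged, blocks for replicate number and slide place, and an intensity trend were tried as well. So was the t-test that the methods give for a tumor model against other models, since they name no test for strains. Leaving out both arrays of the shared slide column was added after seeing the data. Replicate numbers were not taken to pair the samples, since nothing in the labels says that they do. Same-numbered arrays had correlations of 0.312, -0.00299 and 0.431 after removal of strain means. Arrays of unlike number had correlations from -0.516 to 0.205. Python 3.11.15, numpy 2.4.6, pandas 2.3.3 and matplotlib 3.10.9 were used.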

Additional observations from a re-analysis of the deposited data

How the results depend on the processing

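The count of miRNAs that passed the test (2, with 0 higher and 2 lower in Balb/C) was the value most affected by the processing. It was 0 under scaling to the 75th percentile, quantile normalization, the deposited table, the filter for all 6 arrays, outlier spots kept, normexp, slide column as a block and the methods' t-test after Benjamini-Hochberg adjustment, and 1 (lower) for the methods' t-test at its unadjusted threshold. It was 18 (3 higher, 15 lower) when arrays were scaled to miRNAs well above background on all 6, 4 (1 higher, 3 lower) without scaling and with a floor, 3 (1 higher, 2 lower) without a filter, 10 (5 and 5) as green over red, 9 (3 and 6) with all 8 gland arrays, 8 (6 and 2) with M2_2L and M2_2R averaged, 1 (1 and 0) with slide row as a block and 20 (7 and 13) with an intensity trend. Leaving out 1 array gave 0 to 24 calls, 0 to 9 higher and 0 to 18 lower. The count was 0 without FVB129B6 replicate 2 or Balb/C replicate 2, 6 without FVB129B6 replicate 3, 24 without Balb/C replicate 1 and 11 without Balb/C replicate 3. Without both arrays of the shared slide column, an alternative chosen after seeing the data, it was 19 (1 higher, 18 lower). With a replicate block there were 17 calls (2 higher, 15 lower), but nothing in the labels says that the numbers pair the samples. Balb/C replicates 1 and 3 correlated best with their own number, and Balb/C replicate 2 did not. The cause of these changes was not tested.

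The number of miRNAs with an interval within 1 log2 unit of 0 was 77 of 255 with slide column as a block, where only 1 array of each strain shares a column. It was 128 to 217 under the other alternatives that tested 255 miRNAs. With other numbers tested, it was 235 of 334 without a filter, 167 of 231 with the filter for all 6 arrays and 157 of 261 with all 8 gland arrays. miR-760 and miR-698 stayed lower in Balb/C under each alternative that tested them, and the filter for all 6 arrays left both untested. Low signal limits the dim miRNAs, and 3 arrays a strain limit all of them.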
